A study of Mus musculus with 11 samples.

Results

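Antioxidant and NRF2 target genes were followed in regulatory T cells (Tregs) of MC38 tumors, called TI-Tregs, and of spleens from the same tumor-bearing mice. The set holds 10 genes out of 14604 genes listed in the deposited values. They were chosen by symbol for their known roles, with earlier results of these data known. They are Nfe2l2, Hmox1, Txnrd1, Prdx1, Gclm, Srxn1, Slc7a11, Gpx4, Gpx1 and Mt1, and all 10 passed the filter on low values (a mean log2(n + 1) of at least 0.5), which 13897 genes passed. MC38 is a mouse colon carcinoma cell line, grown here as a graft. By the labels, 3 spleen and 3 tumor libraries came from CD177flox/flox mice, called WT below, for which no Cre is named. Another 3 spleen and 2 tumor libraries came from CD177flox/flox/FOXP3-CreYFP mice, called KO below, in which Cre driven from Foxp3 acts in Tregs. All mice carried the floxed allele and an MC38 tumor, and none was labelled as treated. An age at implantation is stated for the MC38 model but not for these floxed mice. The day of harvest is not given in the sources used here, nor is the number of mice behind a library. Cells were gated as live CD4+GITR+CD25+ cells. Tumors were dissociated with enzymes and spleens by mashing without enzymes, so an effect of the tissue and an effect of its dissociation cannot be told apart. Nothing in the labels says that libraries of a group came from separate mice, so the p-values measure the spread between libraries.

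NRF2, the product of Nfe2l2, is a transcription factor that KEAP1 marks for degradation and that accumulates when oxidants or electrophiles modify KEAP1. It pairs with small MAF proteins and binds antioxidant response elements, at which BACH1 competes with it. Its known targets make glutathione (Gclm, and Slc7a11 for the import of cystine), run the thioredoxin system (Txnrd1, Prdx1, Srxn1) and break down heme (Hmox1). Gpx1 and Gpx4 encode selenium-containing glutathione peroxidases, which reduce hydrogen peroxide and lipid hydroperoxides, and Mt1 encodes a metallothionein that binds zinc and copper. NRF2 itself is controlled largely through the stability of its protein, which RNA does not show.

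The unit is log2(n + 1), where n is the kallisto estimate of a gene's reads after sleuth, and the scaling of n is not stated. Library totals of n ran from 712832 to 844331 in spleen and from 1103159 to 1304548 in tumor, and a single gene, Gm12896, took 31.4% to 42.5% of them. Levels are therefore compared between libraries and not between genes. Marker genes of other cell types were high in the sorted tumor samples. The summed n of 13 myeloid genes was 135 to 339 in spleen and 9100 to 13317 in tumor libraries, and that of 6 fibroblast genes was 2.57 to 3.52 and 493 to 1040. The summed n of 10 Treg and T cell genes was 1722 to 1953 in spleen and 1303 to 1965 in tumor, with Foxp3 at 5.98 to 6.75 and 4.72 to 6.12 on the log2 scale. Many of the genes described here are active in macrophages as well as in T cells. A higher level in these bulk samples may be more RNA per Treg or more cells of another type, which cannot be told apart.

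All 10 genes were higher in TI-Tregs than in spleen Tregs (limma over all genes tested, Benjamini-Hochberg adjusted p below 0.05). Of all 13897 genes tested, 43.1% were called higher and 35.9% lower in tumor, so a rise by itself was common. For 8 of the 10 genes every tumor library lay above every spleen library, which held for 35.2% of all genes. The median difference of the 10 genes was 1.96 on the log2 scale, beside 0.08 for all genes tested. The set was chosen with earlier results of these data known, so these comparisons with all genes only describe it. The rises ranged from 0.85 for Gclm to 6.49 for Mt1. None of the 10 genes was called in either comparison of genotypes or in the interaction of tissue and genotype.

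**Figure D1:**
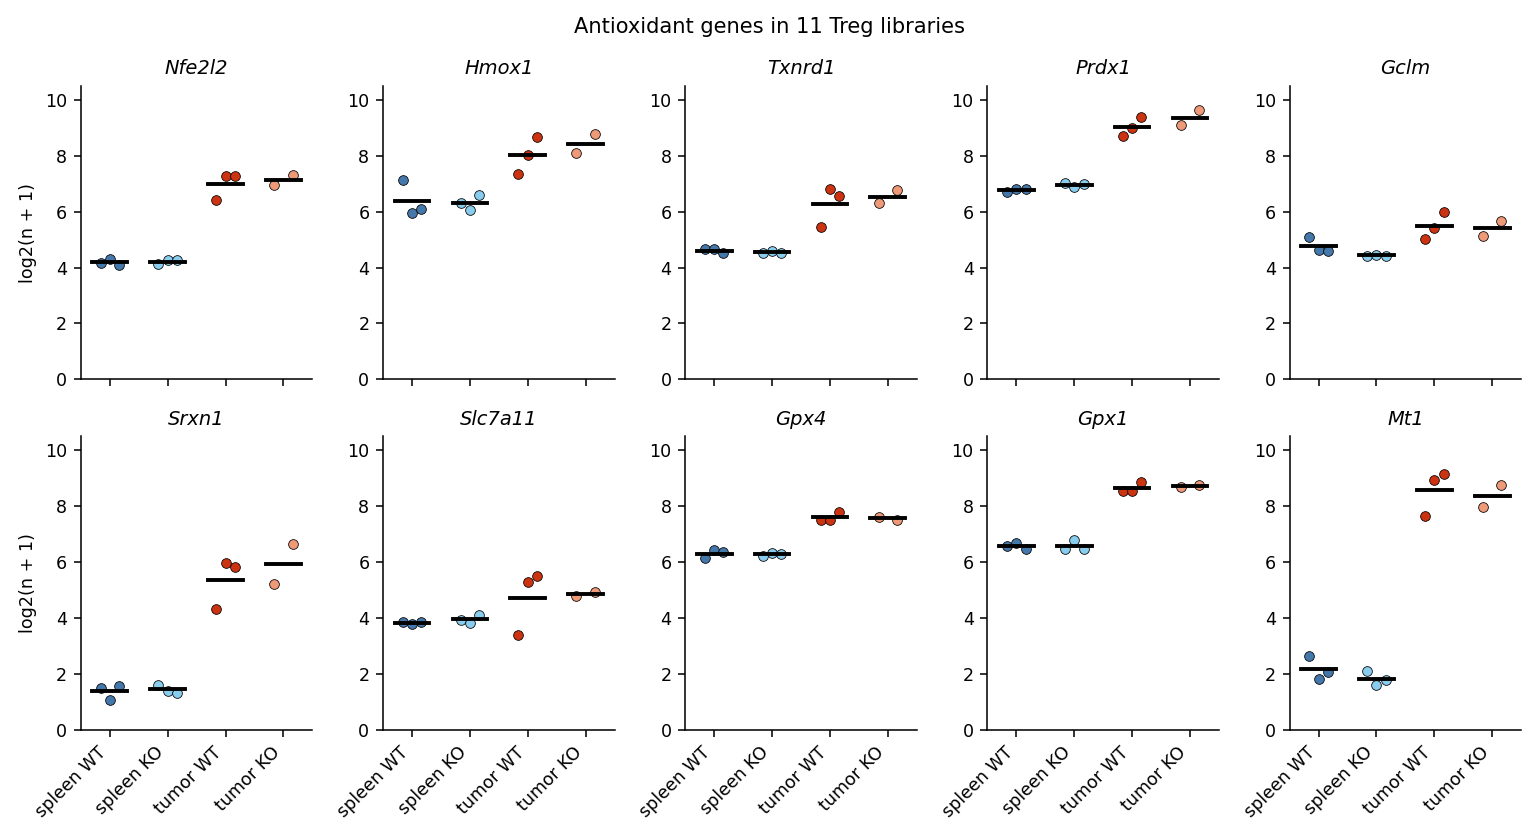
Level of each of the 10 genes, as log2(n + 1), in every library, with points for libraries and a bar for the mean of each group (3 spleen WT, 3 spleen KO, 3 tumor WT, 2 tumor KO). Tumor and spleen libraries did not overlap except for Gclm and Slc7a11, and the widest gap between them is that of Mt1, 5.03 log2 units.

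Nfe2l2 itself was among the genes that rose. It maps to the minus strand of chromosome 2, from 75675513 to 75704641 (all positions are in GRCm38, the build also called mm10). Its log2(n + 1) was 4.18, 4.31 and 4.07 in the spleen WT and 4.11, 4.25 and 4.27 in the spleen KO libraries. It was 6.42, 7.28 and 7.27 in the tumor WT and 6.95 and 7.31 in the tumor KO libraries. The lowest tumor library thus lay 2.11 log2 units above the highest spleen library. The mean was 4.20 ± 0.09 (SD, n = 6) in spleen libraries and 7.05 ± 0.38 (SD, n = 5) in tumor, a rise of 2.85 (standard error, SE, 0.14, limma adjusted p = 1.6e-09), or 7.20-fold in n + 1. The exact two-sided permutation test over the libraries gave p = 0.0043, the smallest that 6 against 5 libraries allow, for Nfe2l2 and the other 7 genes without overlap. Keap1, which encodes the adaptor that binds NRF2 for degradation, was at 4.35 to 4.66 in spleen and 4.41 to 4.79 in tumor, and its difference of 0.17 did not pass the threshold (limma adjusted p = 0.070). With equal library totals Keap1 was called lower in tumor (-0.43, adjusted p = 0.00089). A factor common to a library nearly cancels in the difference between 2 of its genes, but quantile normalization can still move it. Nfe2l2 minus Keap1 was -0.27 ± 0.12 (SD, n = 6) in spleen libraries and 2.40 ± 0.36 (SD, n = 5) in tumor libraries, with no overlap. This pair, and the other within-library pairs below, were chosen after the values were seen and were given no test. Of these 7 pairs, quantile normalization moved the tumor-minus-spleen change of Hmox1 minus Hmox2 from 1.03 to 0.64 and that of Slc7a11 minus Slc3a2 from -0.80 to -0.49, and the others by less than 1.5 times.

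Promoters were taken from RefSeq (GRCm38.p6), from 250 bases before each start site to 50 after it. They matched 9 of the 10 genes, all but Hmox1, with 14 promoters between them. The core of the antioxidant response element, TGACNNNGC, was searched on both strands. It was found in 5 of the 14 promoters, 1 each in Nfe2l2, Txnrd1, Prdx1, Gclm and Srxn1, and in 12.4% of 32851 mouse promoters of the same length. The match in Prdx1 has the letters TGACTCAGC, which overlap the AP-1 site and which 0.454% of all promoters held. The stretches around these matches are shown because NRF2 is known to act on its targets through this element. Capitals mark the match, in the direction of the gene, and the match lies on the opposite strand in all but Nfe2l2.
Nfe2l2, chr2:75704850-75704913, minus strand: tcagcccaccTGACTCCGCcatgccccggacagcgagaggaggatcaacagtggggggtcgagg
Txnrd1 (second of its promoters), chr10:82859069-82859167, plus strand: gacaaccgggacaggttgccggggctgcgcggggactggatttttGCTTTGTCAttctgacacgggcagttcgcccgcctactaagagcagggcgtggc
Prdx1, chr4:116685421-116685519, plus strand: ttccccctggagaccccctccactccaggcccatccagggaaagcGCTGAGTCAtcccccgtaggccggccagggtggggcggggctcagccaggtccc
Gclm, chr3:122245378-122245476, plus strand: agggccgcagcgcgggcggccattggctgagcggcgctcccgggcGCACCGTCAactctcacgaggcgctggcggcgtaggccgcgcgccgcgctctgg
Srxn1, chr2:152105531-152105560, plus strand: cgccacggcgggcagtgggcaGCTAGGTCA
Counted from the start base as 0, the matches lay at -240 to -232 in Nfe2l2, -92 to -84 in Txnrd1, -133 to -125 in Prdx1, -134 to -126 in Gclm and 28 to 36 in Srxn1. No match was found in these windows for Slc7a11, Gpx4, Gpx1 and Mt1. A match describes the sequence and does not show binding, and no match says only that these letters are not in the window.

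All 3 genes of the thioredoxin system rose with no overlap between the tissues. Srxn1 encodes sulfiredoxin, which restores peroxiredoxins that have been over-oxidized, and lies on chromosome 2 from 152105516 to 152111376 on the plus strand. It was at 1.51, 1.06 and 1.57 in spleen WT, 1.61, 1.40 and 1.33 in spleen KO, 4.31, 5.97 and 5.82 in tumor WT and 5.23 and 6.66 in tumor KO libraries. All spleen libraries were low and all tumor libraries high, and the tumor libraries spread from 4.31 to 6.66. Srxn1 thus differed by 4.18 (SE 0.32, limma adjusted p = 6.7e-08), the 201st largest rise of the 13897 genes. Prdx1 encodes a peroxiredoxin, an abundant peroxidase that thioredoxin recharges, and lies on chromosome 4 from 116685544 to 116700822 on the plus strand. It was at 6.87 ± 0.12 (SD, n = 6) in spleen libraries and 9.16 ± 0.37 (SD, n = 5) in tumor libraries, a rise of 2.29 (SE 0.14, limma adjusted p = 9.4e-09). Txnrd1 encodes the cytosolic thioredoxin reductase and lies on chromosome 10 from 82833951 to 82897712 on the plus strand. It was tightly grouped in spleen, from 4.51 to 4.65, and ranged from 5.46 to 6.83 in tumor, a rise of 1.81 (SE 0.20, limma adjusted p = 2.1e-06). Txnrd2, its mitochondrial counterpart, did not pass the threshold as deposited (-0.35, limma adjusted p = 0.057) and was called lower with equal library totals (-0.93, adjusted p = 2.4e-05). Txnrd1 minus Txnrd2 within a library was 0.78 ± 0.30 (SD, n = 6) in spleen libraries and 2.94 ± 0.64 (SD, n = 5) in tumor. Prdx1 minus Prdx2 was 0.84 ± 0.19 and 1.59 ± 0.33 in the same libraries, although Prdx2 rose too, by 1.54.

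The glutathione genes moved less. Gclm encodes the regulatory subunit of glutamate-cysteine ligase, the enzyme of the first step of glutathione synthesis, and lies on chromosome 3 from 122245557 to 122270732 on the plus strand. It was at 5.08, 4.61 and 4.57 in spleen WT, 4.43, 4.45 and 4.42 in spleen KO, 5.03, 5.43 and 5.99 in tumor WT and 5.12 and 5.68 in tumor KO libraries. The tissues overlapped through spleen WT replicate 1, which lay above tumor WT replicate 1. Gclm differed by 0.85 as deposited (SE 0.17, limma adjusted p = 0.00054, exact permutation p = 0.0087). With equal library totals the difference was 0.25 and did not pass (adjusted p = 0.21). Gclc, which encodes the catalytic subunit of the same enzyme, was at 3.90 to 4.19 in spleen and 3.83 to 4.12 in tumor (-0.05, limma adjusted p = 0.59), and was called lower in tumor with equal library totals (-0.63, adjusted p = 8.8e-05). Gclm minus Gclc was thus 0.56 ± 0.30 (SD, n = 6) in spleen libraries and 1.46 ± 0.35 (SD, n = 5) in tumor, with no overlap.

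Slc7a11 encodes the light chain of the cystine-glutamate exchanger xCT and lies on chromosome 3 from 49892526 to 50443614 on the minus strand. It was at 3.85, 3.77 and 3.88 in spleen WT, 3.93, 3.83 and 4.10 in spleen KO, 3.40, 5.30 and 5.49 in tumor WT and 4.80 and 4.93 in tumor KO libraries. A single tumor library, WT replicate 1, was below all spleen libraries, and the other 4 were above them. Slc7a11 differed by 0.89 (SE 0.29, limma adjusted p = 0.013, exact permutation p = 0.030). With a library left out the difference ran from 0.71 to 1.24 (limma adjusted p at most 0.037), and was largest without tumor WT replicate 1. That library had the lowest value, so leaving it out raised the difference by construction. The difference was 0.64 under quantile normalization (limma adjusted p = 0.0497) and 0.67 under median centring (adjusted p = 0.042). With equal library totals it was 0.30 and did not pass (adjusted p = 0.35). Slc3a2, which encodes the heavy chain that xCT shares with other amino acid transporters, rose by 1.69 with no overlap (7.46 to 7.72 in tumor, 5.74 to 5.96 in spleen). Slc7a11 minus Slc3a2 was -1.97 ± 0.13 (SD, n = 6) in spleen libraries and -2.76 ± 0.80 (SD, n = 5) in tumor, with overlap.

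Reads of some of these genes may be shared with copies elsewhere. In GENCODE release M21, 1 of the 7 transcripts of Gclm matches Gm10123 over 244 bases at 100% identity and 1 matches Ppia over 287 bases at 97.9%, and Gclm exons overlap those of Gm17494 and Gm6061. Of the 5 transcripts of Slc7a11, 2 match Tuba1a, 2 match Tuba1c and 1 matches Tuba1b, each over 373 bases at 95.4% to 96.2% identity. Gm10123 was at a mean of 6.99 in spleen and 8.83 in tumor, and Ppia at 9.21 and 10.41. Tuba1a was at 5.75 and 7.58, Tuba1b at 7.33 and 8.90 and Tuba1c at 4.16 and 6.93. For Gpx4, all 7 transcripts match the processed copy Gpx4-ps2 over 762 bases at 99.7% identity, and for Prdx1 all 6 match Gm21399 and Gm7204. The copies of Gpx4 and Prdx1 named here were not analysed here. The values of Gclm, Slc7a11, Prdx1 and Gpx4 are uncertain to that extent, and the strand setting of the counting is not given in the sources used here.

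The glutathione peroxidases rose with the smallest spread. Gpx1, which encodes the cytosolic enzyme, lies on chromosome 9 from 108338903 to 108340343 on the plus strand. It ranged from 6.48 to 6.80 in spleen and from 8.55 to 8.89 in tumor, a rise of 2.10 (SE 0.08, limma adjusted p = 2.0e-10). Gpx4 encodes the enzyme that removes lipid hydroperoxides and is known for holding back ferroptosis, a form of cell death, and lies on chromosome 10 from 80047166 to 80056439 on the plus strand. It ranged from 6.15 to 6.43 in spleen and from 7.50 to 7.81 in tumor, a rise of 1.30 (SE 0.07, limma adjusted p = 3.8e-09). Within tumor libraries the SD was 0.14 for Gpx1 and 0.13 for Gpx4, beside 0.37 to 0.88 for the other 8 genes. Gpx1 minus Gpx4 was 0.29 ± 0.14 (SD, n = 6) in spleen libraries and 1.09 ± 0.10 (SD, n = 5) in tumor, with no overlap.

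Hmox1, which encodes heme oxygenase 1, the inducible enzyme that opens the heme ring, lies on chromosome 8 from 75093621 to 75100589 on the plus strand. It was at 7.15, 5.93 and 6.09 in spleen WT, 6.29, 6.06 and 6.58 in spleen KO, 7.34, 8.03 and 8.66 in tumor WT and 8.08 and 8.79 in tumor KO libraries. The tissues did not overlap, although spleen WT replicate 1 was only 0.20 log2 units below tumor WT replicate 1. Hmox1 differed by 1.83 (SE 0.26, limma adjusted p = 3.0e-05). Hmox2, the constitutive enzyme, rose by 0.81 (0.19 with equal library totals), and Hmox1 minus Hmox2 was 1.50 ± 0.46 in spleen and 2.53 ± 0.57 in tumor libraries, with overlap. Macrophages of the splenic red pulp, which recycle the iron of old red cells, are known for Hmox1. The summed n of 5 of their marker genes was 120 in spleen WT replicate 1 and 51.0 to 89.4 in the other spleen libraries. Their iron exporter Slc40a1 was at 6.28 in that library and 4.68 to 5.44 in the others. The part of these cells in the spleen level of Hmox1 was not tested.

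**Figure D2:**
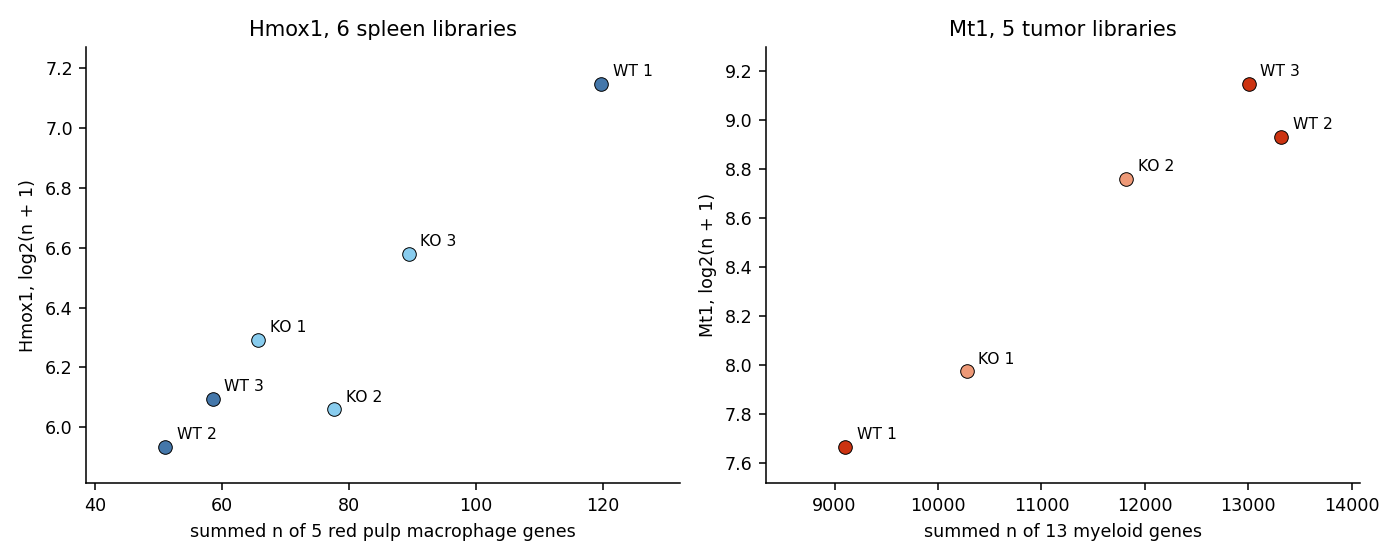
Left, Hmox1 as log2(n + 1) against the summed n of 5 red pulp macrophage genes in the 6 spleen libraries, of which WT replicate 1 is highest on both axes. Right, Mt1 as log2(n + 1) against the summed n of 13 myeloid genes in the 5 tumor libraries, of which WT replicate 1 is lowest on both axes. Points are libraries, the axes do not start at 0, and both pairs were chosen after the values were seen.

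Mt1, on chromosome 8 from 94179082 to 94180327 on the plus strand, had the largest rise of the set. It was at 2.64, 1.82 and 2.08 in spleen WT, 2.10, 1.61 and 1.78 in spleen KO, 7.66, 8.93 and 9.15 in tumor WT and 7.97 and 8.76 in tumor KO libraries. The lowest tumor library was 5.03 log2 units above the highest spleen library. Mt1 differed by 6.49 (SE 0.26, limma adjusted p = 2.7e-10), or 90.0-fold in n + 1, the 29th largest rise of the 13897 genes. Metallothionein genes are switched on by zinc through MTF1 at metal response elements. Mtf1 rose by 0.24 (limma adjusted p = 0.033), a call that turned to a fall of 0.34 with equal library totals (-0.34, adjusted p = 0.023). Slc30a1, which encodes a zinc exporter and is itself a known target of MTF1, rose by 1.01 (3.23 to 3.64 in spleen, 4.21 to 4.56 in tumor), and by 0.43 with equal library totals. Mt2, the neighbor of Mt1, was not analysed here. The core of the metal response element, searched as TGCGCNC or TGCACNC on both strands, occurred 3 times in the Mt1 promoter, at -23, 2 and 20 from the start base. It was present at least once in 25.7% and at least 2 times in 7.11% of all promoters. Among the 10 genes it also occurred 3 times in the promoter of Gclm, the gene with the smallest rise. The promoter of Srxn1 held 1 match. The Mt1 stretch is shown because it holds all 3 matches of Mt1, in capitals, at the gene with the largest rise.
Mt1, chr8:94179021-94179118, plus strand: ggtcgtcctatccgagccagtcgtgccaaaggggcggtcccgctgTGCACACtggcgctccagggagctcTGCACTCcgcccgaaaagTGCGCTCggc

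The tissue difference was also estimated within each genotype. In WT mice 9 of the 10 genes were called higher, against 39.2% of all genes, and in KO mice 9 of 10, against 36.2%. Slc7a11 was the exception in both, with 0.90 in WT (adjusted p = 0.080) and 0.91 in KO mice (limma adjusted p = 0.11). It passed in both without tumor WT replicate 1, at 1.56 and 0.91. The KO libraries and the KO difference were the same in that fit. Only the SE of the KO difference fell, from 0.48 to 0.11, through the shared estimate of the spread. The WT call of Gclm (0.73, adjusted p = 0.017) was lost without spleen WT replicate 2 (0.65), spleen WT replicate 3 (0.63) or tumor WT replicate 3 (0.47), and its KO call (0.97, adjusted p = 0.0078) without tumor KO replicate 2 (0.68). The WT call of Gclm was also lost under quantile normalization (0.44), median centring (0.50) and equal library totals (0.13), and its KO call under equal library totals (0.35). The rise of Mt1 was 6.40 in WT and 6.54 in KO mice, that of Srxn1 3.99 and 4.49, and that of Nfe2l2 2.80 and 2.92. The KO and WT estimates share a single estimate of the spread.

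Deletion of Cd177 went with no detectable change in these genes. The tumor-minus-spleen difference was larger in KO than in WT mice for 9 of the 10 genes, by at most 0.51, and smaller by 0.03 for Gpx4 (-0.03). The median of this interaction over all genes was -0.02. The share of all genes with a larger difference in KO mice was not counted. The WT tumor mean includes tumor WT replicate 1, which was the lowest tumor library for 9 of the 10 genes. Without that library the rise of Slc7a11 was 1.56 in WT and 0.91 in KO mice, so for this gene the order turned round. The interaction without that library is not given here for the other genes. The count of 9 is therefore not read as an effect of genotype. None of the 10 genes passed the threshold for the interaction (adjusted p = 0.9997 for all 10 from limma), and of all genes 0% passed, with 383 of 13897 at an unadjusted p below 0.05 but 0 of these 10. In spleen, KO minus WT ranged from -0.35 for Mt1 to 0.19 for Prdx1, and 0 of 10 genes and 0% of all genes were called, with 281 genes and 0 of the 10 at an unadjusted p below 0.05. In tumor it ranged from -0.21 for Mt1 to 0.58 for Srxn1, and 0 of 10 genes were called, beside 0.0072% of all genes, with 634 genes and 0 of the 10 at an unadjusted p below 0.05. The groups of 3 and 2 libraries leave wide intervals. For Nfe2l2 the 95% interval of KO minus WT ran from -0.43 to 0.48 in spleen and from -0.37 to 0.65 in tumor, and for Srxn1 in tumor it ran from -0.51 to 1.66. For Gpx4 the interval ran from -0.26 to 0.21 in spleen and from -0.31 to 0.21 in tumor. Cd177 itself was not analysed here, so the genotype labels were not checked.

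**Figure D3:**
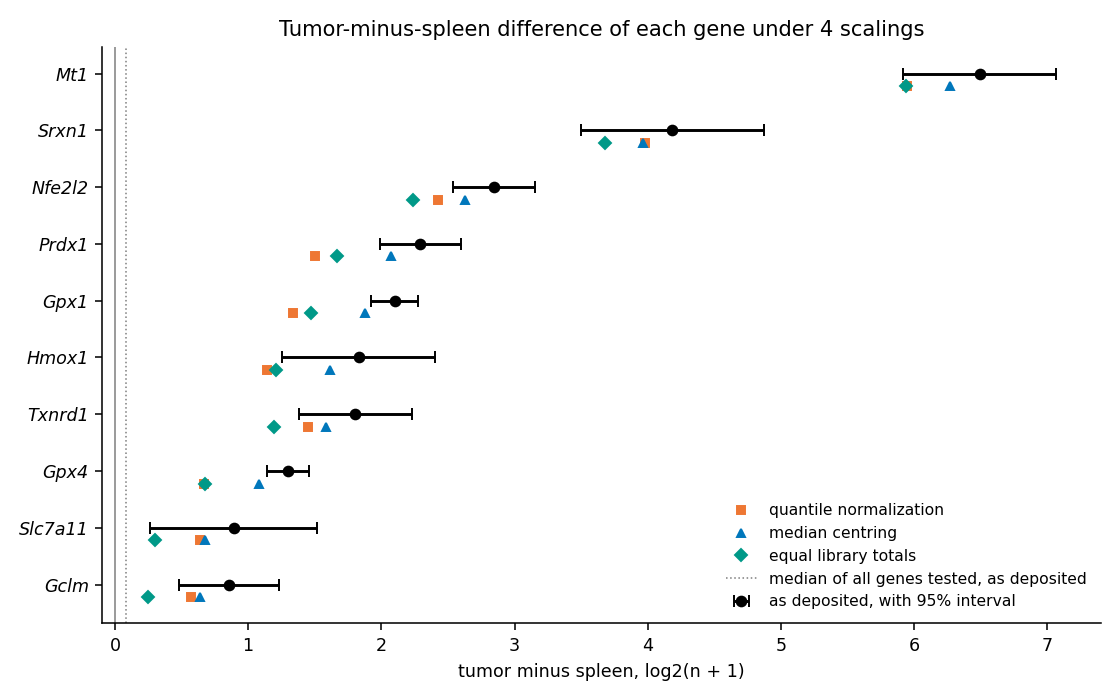
Tumor-minus-spleen difference of each gene in log2(n + 1), as deposited (black, with the 95% interval from limma) and after quantile normalization, median centring or equal library totals. All points lie above 0. Mt1 and Srxn1 have the largest and Slc7a11 and Gclm the smallest rises under each scaling. The order of the genes that lie between these pairs differs under quantile normalization.

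The size of the rises depended on the scaling of n. Over all genes tested, the median difference was 0.08 as deposited. It was -0.16 under quantile normalization, -0.14 under median centring and -0.44 under equal library totals. Over all genes, 5983 were called higher and 4988 lower as deposited, and 3286 higher and 7819 lower with equal library totals. All 10 genes stayed above 0 under each scaling, and 8 passed the threshold with equal library totals. There, Mt1 was at 5.94, Srxn1 at 3.68, Nfe2l2 at 2.24, Prdx1 at 1.67, Gpx1 at 1.47, Hmox1 at 1.21, Txnrd1 at 1.19 and Gpx4 at 0.68. Under quantile normalization Prdx1 was at 1.50, Txnrd1 at 1.45, Gpx1 at 1.34, Hmox1 at 1.14 and Gpx4 at 0.67, so Txnrd1 passed Gpx1 and Hmox1.

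Among the tumor libraries, a single library was the lowest for nearly all of these genes. Tumor WT replicate 1 was the lowest tumor library for 9 of the 10 genes, all but Gpx4, and for 25.1% of all genes tested. Among the other genes of the pathway, listed below, it was the lowest for 46 of 84. Its median deviation from the tumor mean was -0.73 for the 10 genes and -0.04 for all genes. The same library had the lowest summed n of the 13 myeloid genes, 9100 against 10276 to 13317 in the others, and a summed n of Treg and T cell genes of 1959, against 1303 to 1965. Tumor KO replicate 2 was the highest for 4 of the 10 genes, Nfe2l2, Hmox1, Prdx1 and Srxn1, and for 20.6% of all genes tested. Tumor WT replicate 3 was the highest for 5 of the 10 and for 15.7% of all genes. The part of the cell mix in these differences was not tested. Among spleen libraries, WT replicate 1 was highest for Hmox1, Gclm and Mt1, by 0.57, 0.47 and 0.54 over the next. It was the highest spleen library for 18.4% of all genes.

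**Figure D4:**
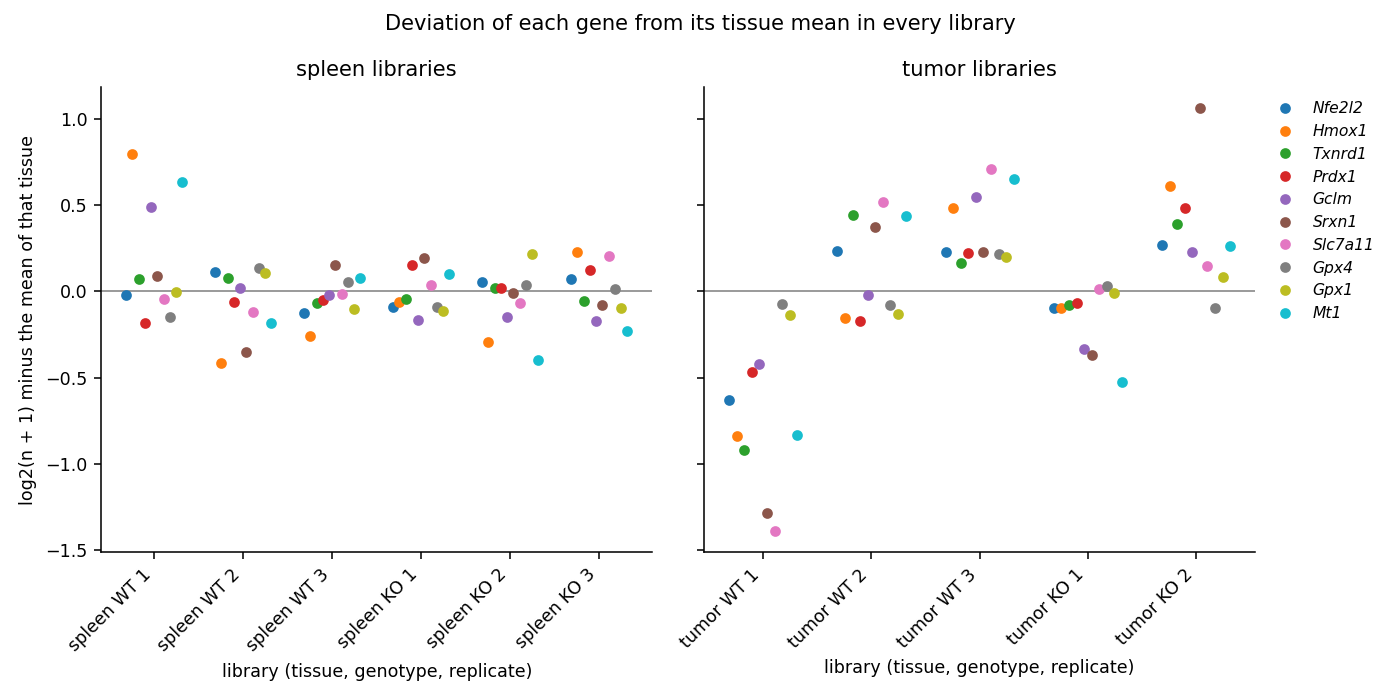
Deviation of each gene from its mean over the libraries of the same tissue, in log2(n + 1), for the 6 spleen libraries (left) and the 5 tumor libraries (right). Tumor WT replicate 1 lies below the tumor mean for all 10 genes, and spleen WT replicate 1 stands above the other spleen libraries for Hmox1, Gclm and Mt1.

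Other genes of the pathway were taken from 10 lists arranged by role, of which 84 of 90 genes were tested. Of the 84, 59 were called higher in tumor (70.2%, against 43.1% of all genes) and 11 lower (13.1%, against 35.9%). The other 14 did not pass, and the median difference was 0.87. These lists too were chosen with earlier results of these data known, so the comparisons with all genes only describe them. The counts of single lists below rest on few genes and are to be read beside these shares of all genes. With equal library totals the counts were 44 higher and 23 lower, beside 3286 and 7819 of all 13897 genes. Rises named below then shrank, as for Sqstm1 to 1.21, Acsl4 to 0.81, Sod2 to 0.79 and G6pdx to 0.67. Falls grew, as for Rac2 to -1.43, Txnip to -1.37, Pstk to -1.25, Osgin1 to -1.23, Cul3 to -0.84 and Btrc to -0.73. All 13 myeloid genes counted above were called higher in tumor too, and the share of those cells in these lists was not tested.

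Among 12 NRF2 regulators, 6 rose, 3 fell and 3 did not pass, beside 43.1% called higher and 35.9% lower of all genes. Bach1, which encodes a repressor that competes with NRF2, rose by 2.22 (SE 0.13), and was at 3.32 to 3.84 in spleen and 5.24 to 6.07 in tumor. Bach2, its relative, known for its role in keeping T cells quiescent, fell by 3.53 (-3.53, limma adjusted p = 1.2e-10). Maff, which encodes a small MAF partner, rose by 2.49 and Sqstm1, which encodes the KEAP1-binding autophagy receptor p62, by 1.83. Of the genes for parts of the ligases that degrade NRF2, Cul3 and Btrc fell by 0.22 and 0.23 (-0.22 and -0.23), while Rbx1 rose by 0.84. With equal library totals Rbx1 was at 0.23 and did not pass (adjusted p = 0.057).

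Among 10 heme and iron genes, 8 rose and 1 fell. The ferritin genes Fth1 and Ftl1, whose proteins store iron, rose by 3.75 (SE 0.11) and 2.89 (SE 0.13), and were at 11.88 to 12.49 and 11.45 to 11.94 in tumor. Blvrb, which encodes a biliverdin reductase, rose by 2.46. Slc40a1, the iron exporter ferroportin, fell by 3.30 (-3.30), and was at 4.68 to 6.28 in spleen and 1.60 to 2.48 in tumor. Its fall went with that of the red pulp macrophage genes Spic (-2.07) and Cd5l (-3.37), while Siglec1 and Vcam1 of the same list rose by 4.17 and 1.53. The part of those cells was not tested.

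Of 13 glutathione genes, 8 rose, 1 fell and 4 did not pass. The transferase genes Mgst1 and Gstm1 rose by 4.0 and 2.76 and Glrx, which encodes glutaredoxin, by 2.76, while the transferase gene Gsta4 fell by 2.54 (-2.54). Of 10 thioredoxin and peroxiredoxin genes, 7 rose and 1 fell. Prdx5, Prdx4 and Txn1 rose by 3.01, 2.57 and 2.49, and Txnip, which encodes an inhibitor of thioredoxin, fell by 0.75 (-0.75, limma adjusted p = 0.0019). Of 6 other peroxidase, catalase and dismutase genes, 4 rose and 0 fell, Sod3, Sod2 and Sod1 by 2.49, 1.39 and 0.66. The rise of Sod1 became 0.04 with equal library totals and did not pass (adjusted p = 0.64).

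Of 7 genes of NADPH supply and quinone reduction, 6 rose and 1 fell. Nqo1, a classic NRF2 target that encodes a quinone reductase, rose by 1.21 (SE 0.20) but stayed low, at 0.38 to 0.75 in spleen and 0.99 to 2.31 in tumor. Idh1, Pgd and G6pdx, which encode NADPH-producing enzymes, rose by 2.36, 1.89 and 1.28. Osgin1, another known NRF2 target, fell by 0.67 (-0.67, limma adjusted p = 0.0097). Of 13 genes of selenoproteins and their synthesis, 10 rose and 2 fell. The selenoprotein genes Selenom, Selenon and Selenop rose by 3.52, 3.22 and 2.61. The genes that fell, Secisbp2 by 1.02 (-1.02) and Pstk by 0.68 (-0.68), encode parts of the machinery that inserts selenocysteine, the residue of the active site of Gpx1, Gpx4 and Txnrd1. Of the same machinery, Sephs2 rose by 0.37 (limma adjusted p = 0.0089) and Sepsecs did not pass (-0.30, adjusted p = 0.078). With equal library totals Sephs2 was at -0.22 and did not pass, and Sepsecs was called lower (-0.84).

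Of 5 ferroptosis genes, 3 rose and 1 fell. Alox5, which encodes a lipoxygenase of myeloid cells, rose by 2.97, Aifm2 (FSP1), which guards against lipid peroxidation, by 2.42 and Acsl4, which loads membranes with oxidizable lipids, by 1.42, while Alox12 fell by 1.60 (-1.60). Of 6 genes of the phagocyte NADPH oxidase, the source of superoxide in phagocytes, 5 rose and 1 fell, with a median of 2.43, the largest of the 10 lists. Cybb and Ncf1 rose by 3.86 and 3.43, and Rac2 fell by 0.80 (-0.80).

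**Figure D5:**
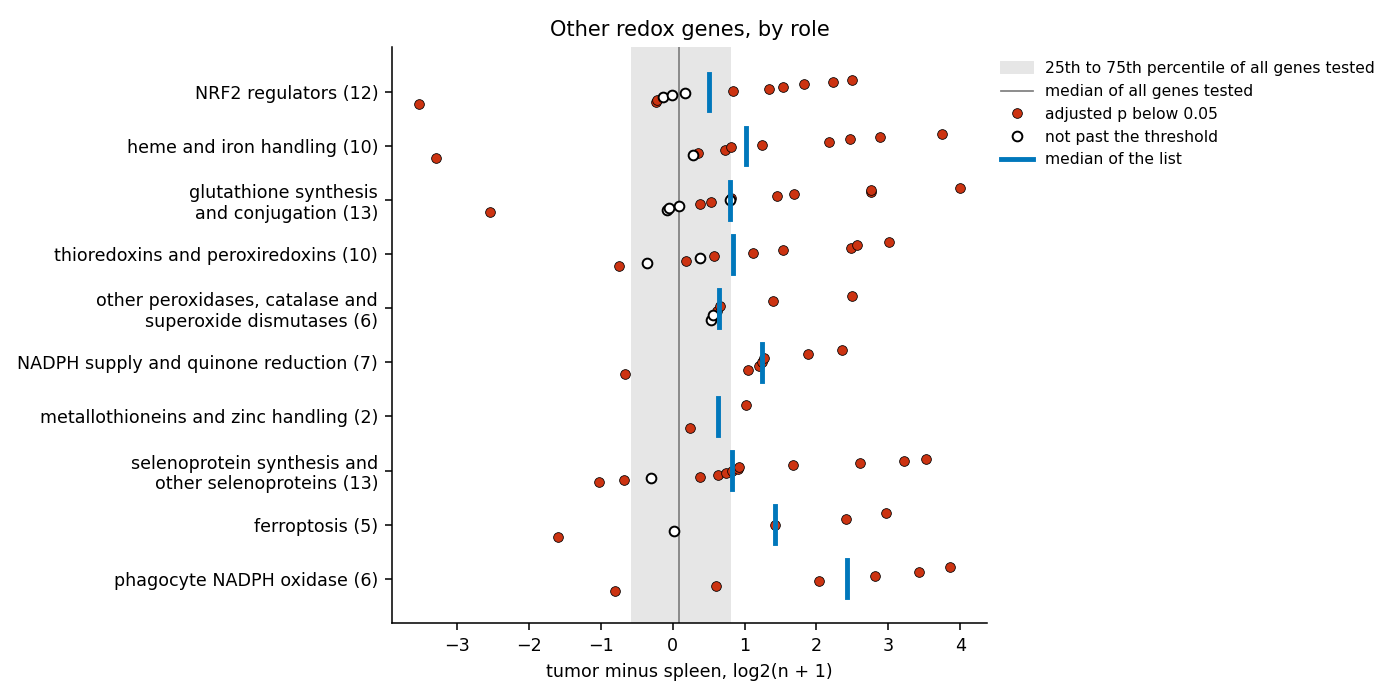
Tumor-minus-spleen difference in log2(n + 1) of the 84 other genes of the pathway, arranged in 10 lists (number of genes in parentheses). Filled points passed the adjusted p of 0.05 and open points did not, blue bars are list medians, and the grey band and line are the 25th to 75th percentile and the median of all genes tested. All list medians lie to the right of the line of all genes, and the largest, 2.43, is that of the phagocyte NADPH oxidase.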

How the data were processed

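RNA of Tregs was sequenced in 11 libraries (6 spleen, 5 tumor) after depletion of ribosomal RNA. The authors pseudoaligned single-end reads to mm10 with kallisto, passed the estimated counts through sleuth 0.30.0, summed them by gene symbol and deposited log2(n + 1) values. What kallisto version, annotation, strand setting and scaling of n were used is not given in the sources used here, so the depth in reads is unknown and no counting interval is given. The deposited log2 values were tested without further scaling by limma 3.58.1 in R 4.3.3 (lmFit, eBayes with trend) over the 13897 genes with a mean of at least 0.5 (707 removed), with Benjamini-Hochberg adjustment and a threshold of 0.05. Spleen and tumor were compared with genotypes pooled, as the study did, and a model with a mean per tissue and genotype gave the other contrasts. Exact two-sided permutation tests used scipy 1.17.1. On the log2(n + 1) scale, changes of low genes come out too small. Near copies were searched with BLAST 2.17.0 in GENCODE release M21 (at least 95% identity over 75 bases). The 10 genes, the pathway lists and the marker lists were chosen with earlier results of these data known. The genes named are all 10, up to 3 rises and 3 falls among the called genes of each list, Keap1, Bach1, Nqo1, Gclc, Fth1, Ftl1 and Mt2, and marker genes beside a result. The values of 1 gene that this rule names are not reported here. Hmox2, Txnrd2, Prdx2 and Slc3a2, as partners of 4 of the 10 genes, and Rbx1, Sephs2 and Sepsecs were named after their values were seen. Of the marker lists, 13 of 13 myeloid genes were called higher in tumor, 5 of 6 fibroblast genes higher and 0 lower, 2 of 10 Treg and T cell genes higher and 6 lower, 2 of 5 red pulp macrophage genes higher and 2 lower, 5 of 9 CD8 T and NK cell genes higher and 1 lower, 0 of 6 B cell genes higher and 4 lower, 1 of 6 erythroid and platelet genes higher and 5 lower, and 1 of 3 tested tumor epithelial genes higher and 1 lower. Alternatives changed the scaling, pseudocount, filter, variance trend, multiple-testing correction, genotype covariate, replicate block and the libraries used.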

Additional observations from a re-analysis of the deposited data

Results flagged for a closer look

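Of 53 genes (the 10 genes and 43 pathway genes taken by the naming rule), each was examined in the spleen and the tumor libraries, 106 groups in all, for a library far from the others (Dixon's test, which chance meets in about 1 group in 20, or 5.3 of 106). It was met 6 times, each time in spleen. Gclm was at 5.08 in WT replicate 1, with the others at 4.42 to 4.61. Alox12 was at 2.63 in the same library (others 1.85 to 2.05). Sod3 was at 0.91 in WT replicate 2 (others 0.06 to 0.18), Selenop at 6.05 in WT replicate 3 (others 6.29 to 6.42), Btrc at 2.55 in KO replicate 1 (others 2.32 to 2.40) and Osgin1 at 3.03 in KO replicate 3 (others 3.62 to 3.94). No tissue difference of these genes was found to differ between the genotypes (smallest adjusted p of the interaction 0.9997 from limma).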

How the results depend on the processing

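The rise of the 10 genes in tumor was recomputed under 23 alternatives for each gene, 230 in all. It kept its direction in all 230 and its side of the threshold in 223. The 7 losses were Gclm and Slc7a11 with equal library totals, also with Gm12896 left out of the totals (an alternative chosen after seeing the data), and Gclm, Slc7a11 and Hmox1 with Bonferroni correction, which is stricter by construction. The count of genes called was 10 as deposited, 8 with equal totals, 7 with Bonferroni correction and 10 with any library left out. The shares of all genes called higher were 43.1%, 23.6%, 22.4% and 41.6% to 43.3%, in the same order. Within WT and within KO mice the count was 8 to 10 with a library left out. Of all genes, 36.5% to 39.9% were then called higher in WT and 29.9% to 36.9% in KO mice. Within WT mice the count was 9 as deposited (39.2% of all genes called higher) and 6 with Bonferroni correction (12.5%). It was 8 under quantile normalization (30.1%), median centring (31.6%) and equal totals (21.7%). Within KO mice the count was 9 (36.2%), 8 with equal totals (18.7%) and 6 with Bonferroni correction (9.8%). For the pathway lists, 70 of 84 genes were called in either direction, beside 5983 higher and 4988 lower of all 13897 genes. A call in either direction was thus common for all genes. With Bonferroni correction 54 of the 84 were called, beside 3108 higher and 1943 lower of all genes. With a library left out, 68 to 71 of the 84 were called, beside 5786 to 6019 higher and 4823 to 4966 lower of all genes. Counts for genotype were 0 throughout. With the replicate number as a block, 10 genes were called in the pooled comparison, 9 in WT and 9 in KO mice. The shares of all genes called higher were 41.4%, 37.0% and 31.6%. The block called 71 pathway genes in either direction, beside 5753 higher and 4759 lower of all genes, and Nfe2l2 differed by 2.86. Deviations of same-numbered libraries had correlations of -0.13 to 0.04. With 2 or 3 libraries per group these cannot decide whether the numbers pair the libraries, so the block is not read further. The block gave no value for KO against WT within a tissue, which it cannot estimate. With 2 or 3 libraries per group, the 95% interval of KO minus WT for Srxn1 in tumor ran from -0.51 to 1.66.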
